A study of Mus musculus with 12 samples.

Results

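The 7 patterning factors described here act with or above the Hox genes, and were measured in F9, a line of mouse teratocarcinoma cells that resembles early embryonic cells and differentiates when given retinoic acid. They were the homeobox genes Cdx1, Cdx2, Meis1, Meis2 and Gbx2 and the zinc finger genes Tshz1 and Zfp703. Every probe set (a group of array probes that reads one transcript) whose annotation gave one of these 7 symbols alone was taken, which made 16 of the 37600 probe sets tested and 7 of the 16509 genes with a symbol. Cdx1 and Gbx2 had 1 probe set each, Cdx2 and Tshz1 had 2 each, Meis1 and Zfp703 had 3 each and Meis2 had 4. All 16 were kept, with no filter on low values.

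The 12 arrays formed 4 groups of 3. Cells carrying the label RARaKO, which stands for loss of Rara (retinoic acid receptor alpha), received 1 µM all-trans retinoic acid (atRA) or vehicle, ethanol at 0.1% (EtOH). WT cells received the same 2 treatments. All 4 groups were plated 16 h before treatment and were pretreated for 30 min with cycloheximide, an inhibitor of protein synthesis, at 1 µg/ml, which stayed with atRA or vehicle for 7.5 h, 8 h in all. The labels name no deletion, clone or method for the knockout, and they describe the replicates only as sets 2, 3 and 4, so the p-values rest on an array-to-array spread that may be technical. The number of arrays limits the precision of every value.

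Retinoic acid enters the nucleus and binds receptors that sit on DNA as dimers with RXR proteins, and it is known for turning on Hox genes and other genes of posterior identity in embryos and in embryonal carcinoma cells. Cdx proteins bind and activate Hox genes of the posterior trunk. Meis proteins are homeodomain proteins of the TALE class that bind DNA together with Hox and Pbx proteins, and Gbx2 marks the anterior hindbrain and opposes Otx2 at the border with the midbrain. Tshz1 is a mouse homologue of Drosophila teashirt, a homeotic trunk factor, and Zfp703 is a zinc finger repressor of the NET family.

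Expression is given on what is read as a log2 scale, with the median of the 12 arrays set to 0 for every probe set. Differences between groups can therefore be read, but absolute levels cannot. A coarse class of the lost level could be recovered from the rounding of the values: the median lay at 8 or above for 37.5% of probe sets, from 4 to 8 for 61.9% and below 4 for 0.484%. Among the members, only Meis2 1417129_a_at and Meis2 1457632_s_at fell in the highest class, and the other 14 lay between 4 and 8. A difference was called at an adjusted p under 0.05 in limma (Benjamini-Hochberg over all 37600 probe sets), and an error after a difference is its standard error.

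The level class did not tell embryonal carcinoma cells from the endoderm that F9 cells can become. All 12 markers of pluripotent embryonal carcinoma, Pou5f1, Sox2 and Nanog among them, lay in the highest class, and none was called in any comparison. Of the endoderm markers 10 of 13 lay in that class, of the trophoblast markers 2 of 8 and of the fibroblast markers 1 of 6. Of these the trophoblast factor Gata3 was the only one called, lower in RARaKO than in WT cells in atRA (-0.57 ± 0.11, limma adjusted p = 0.0127). Rara itself was read by 1 probe set, with higher values under the RARaKO label. In EtOH its mean was 0.30 ± 0.02 in RARaKO and -0.60 ± 0.14 in WT cells (SD, n = 3 each), 0.90 ± 0.09 apart (limma adjusted p = 1.50e-04). In atRA it was higher in RARaKO cells by 0.36 ± 0.09 (limma adjusted p = 0.0488). Its response to atRA was 0.45 ± 0.09 in WT cells (limma adjusted p = 0.0460) and -0.10 ± 0.09 in RARaKO cells (limma adjusted p = 0.839). The difference between these responses was not called. Whether the higher values go against the label, or whether the probe set reads a stretch that the knockout leaves transcribed, cannot be told apart here. Every direction between genotypes below is therefore one between arrays labelled RARaKO and arrays labelled WT. These were bulk cultures, in which fewer cells of a type and less RNA per cell cannot be told apart.

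Of the 16 probe sets 2 rose with atRA in each genotype, and they were the same in both: the probe set of Cdx1 and Tshz1 1427233_at. In RARaKO cells 0.263% of all probe sets were called in either direction and 0.215% were called higher; in WT cells the shares were 0.569% and 0.484%. The median log2 response over the 16 was 0.25 in RARaKO cells and 0.20 in WT cells, against medians of -0.0040 and -0.01 over all probe sets, and 15 of 16 responses were above 0 in each genotype. The 3 atRA arrays lay entirely above or below the 3 EtOH arrays for 5 of 16 probe sets in RARaKO cells and 7 of 16 in WT cells, where 12.7% and 13.6% of all probe sets did so. With the set number as a block the same 2 probe sets were called in each genotype, with 0.444% of all probe sets called in RARaKO cells and 0.902% in WT cells. The members sharing a gene are not independent of each other.

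Cdx1, which patterns the vertebrae of the trunk and is a known target of retinoic acid, gave the largest log2 increase of all 37600 probe sets in both genotypes. In RARaKO cells its probe set 1449582_at read 0.53, 0.50 and 0.90 in atRA (sets 2, 3 and 4) and -1.07, -0.86 and -0.50 in EtOH. In WT cells it read 0.63, 0.74 and 0.64 in atRA and -1.03, -1.09 and -1.08 in EtOH. All atRA arrays of a genotype lay above all its EtOH arrays, and the WT arrays were the tighter. The response was 1.45 ± 0.13 in RARaKO cells, 2.74-fold if the scale is log2 (limma adjusted p = 4.05e-04), and 1.74 ± 0.13 in WT cells, 3.33-fold (limma adjusted p = 5.18e-05). Leaving out any of the 12 arrays kept both calls. Leaving out the whole of set 3 lost the RARaKO call (limma adjusted p = 0.120). In that setting 2 of all 37600 probe sets were called in the RARaKO response, against 99 with all arrays. By set, the Cdx1 response in RARaKO cells was 1.60, 1.36 and 1.40 (sets 2, 3 and 4). The difference between the responses was -0.28 with a 95% interval from -0.68 to 0.12, which includes both no difference and a response smaller by 0.68 in RARaKO cells.

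Between genotypes Cdx1 was not called in either condition. In EtOH the mean was -0.81 ± 0.29 in RARaKO and -1.07 ± 0.04 in WT cells (SD, n = 3 each), which differed by 0.26 ± 0.13 (limma adjusted p = 0.378), and by -0.03 after quantile normalization of the arrays. With atRA the means were 0.64 ± 0.22 and 0.67 ± 0.06, which differed by -0.02 ± 0.13 (limma adjusted p = 0.947). The RARaKO arrays spread more widely, and both genotypes overlapped in each condition.

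Tshz1 1427233_at read -0.02, 0.02 and 0.07 in RARaKO cells with atRA (sets 2, 3 and 4) and -0.37, -0.31 and -0.39 with EtOH. In WT cells it read 0.43, 0.29 and 0.45 with atRA and 0.01, -0.01 and -0.08 with EtOH. The 4 groups stood in a ladder, with WT in atRA the highest and RARaKO in EtOH the lowest, and RARaKO in atRA near WT in EtOH. Tshz1 rose with atRA by 0.38 ± 0.06 in RARaKO cells (limma adjusted p = 0.0260) and by 0.42 ± 0.06 in WT cells (limma adjusted p = 0.00789). The difference between these responses was -0.03, with an interval from -0.23 to 0.16. It was lower in RARaKO than in WT cells by 0.33 ± 0.06 in EtOH (limma adjusted p = 0.0130) and by 0.36 ± 0.06 in atRA (limma adjusted p = 0.00753).

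The Tshz1 response in RARaKO cells was lost when any of the 6 RARaKO arrays was left out, with adjusted p from 0.0536 to 0.117. The WT response was lost without the WT atRA or the WT EtOH array of set 4 (0.0515 and 0.0583). The genotype call in EtOH was lost without RARaKO EtOH set 2, WT EtOH set 2 or WT EtOH set 3 (0.0517 to 0.0545), and the call in atRA held without each of the 12 arrays. All 4 of these calls were lost when any whole set was left out. The limma adjusted p then reached at most 0.529 in the RARaKO response, 0.359 in the WT response, 0.161 in EtOH and 0.143 in atRA. Over all probe sets, leaving out a set left as few as 2, 40, 217 and 320 called in that order. All of these Tshz1 calls but the EtOH call were also lost with only the arrays of the groups compared. With the mean of both its probe sets Tshz1 was not called in EtOH (limma adjusted p = 0.0527). The other Tshz1 probe set, 1427232_at, had responses of 0.30 ± 0.09 in RARaKO and 0.33 ± 0.09 in WT cells, but neither passed the test (limma adjusted p = 0.276 and 0.180). Its genotype differences were -0.14 in EtOH and -0.16 in atRA, with no limma adjusted p under 0.353. The pair of probe sets had a Pearson r of 0.87 over the 12 arrays, which share the 4 group means, and of 0.27 within groups.

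Zfp703 1436026_at did not pass the test in either genotype. It read 0.42, 0.42 and 0.19 in RARaKO cells with atRA (sets 2, 3 and 4) and -0.26, -0.03 and -0.10 with EtOH, and in WT cells 0.03, 0.33 and 0.20 with atRA and -0.25, -0.36 and -0.09 with EtOH. In each genotype the 3 atRA arrays lay above the 3 EtOH arrays. The responses were 0.47 ± 0.10 in RARaKO and 0.42 ± 0.10 in WT cells, with limma adjusted p of 0.113 and 0.134. The other 2 probe sets of Zfp703, 1439891_at and 1444202_at, had responses between 0.0056 and 0.08, and atRA and EtOH arrays overlapped for both in each genotype.

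**Figure D1:**
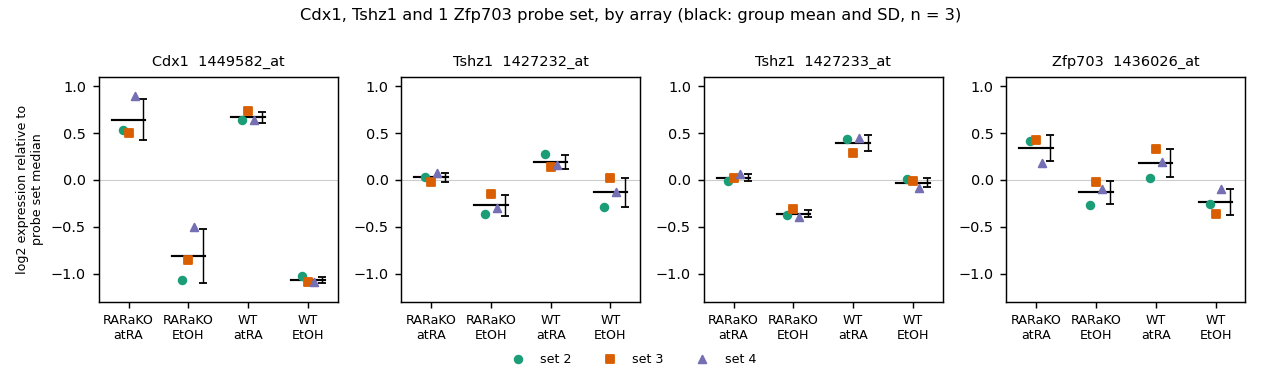
Log2 expression relative to the probe set median (vertical axis) in the 4 groups for Cdx1, both Tshz1 probe sets and Zfp703 1436026_at, with 1 point per array coloured by set and the group mean and SD in black (n = 3). Cdx1 separates atRA from EtOH arrays by the widest gap, and Tshz1 1427233_at forms a ladder in which RARaKO in atRA lies at the height of WT in EtOH.

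Meis1 and Meis2, 2 close paralogues, had probe sets called lower in RARaKO than in WT cells both without and with atRA. This did not hold for every probe set of Meis1. Meis1 1443260_at was not called in atRA (-0.18). Meis1 1459423_at was not lower in either treatment (0.02 in EtOH and 0.05 in atRA). In EtOH 5 of the 16 probe sets were called, all lower in RARaKO: Meis1 1443260_at and 1450992_a_at, Meis2 1417129_a_at and 1457632_s_at, and Tshz1 1427233_at. In atRA 5 were called, again all lower: Meis1 1450992_a_at, Meis2 1417129_a_at, 1447861_x_at and 1457632_s_at, and Tshz1 1427233_at. Of all probe sets 3.01% were called in EtOH and 1.16% were called lower, and in atRA 3.12% were called and 1.51% were called lower. The groups did not overlap for 8 of 16 members in each condition, against 22.4% of all probe sets in EtOH and 20.4% in atRA. The member median was -0.18 in EtOH and -0.17 in atRA, against -0.01 and 0.0035 over all probe sets. With the set number as a block 7 of 16 were called in EtOH, where 5.24% of all probe sets were. Leaving out the whole of set 3 left 0 members called in EtOH and 0 in atRA. In EtOH that setting left 217 of the 37600 probe sets called, against 1131 with all arrays. In atRA the calls over all probe sets were 1173 with all arrays and at least 320 with any array or set left out.

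Meis1 1450992_a_at gave the largest difference of the 7 Meis probe sets in both treatments. It read -0.33, -0.62 and -0.77 in RARaKO EtOH arrays (sets 2, 3 and 4), against 0.31, 0.11 and 0.11 in WT EtOH arrays. In atRA it read -0.11, -0.42 and -0.59 in RARaKO arrays, against 0.66, 0.28 and 0.37 in WT arrays. Every RARaKO array lay below every WT array of the same treatment. The difference was -0.75 ± 0.14 in EtOH, 1.68-fold lower (limma adjusted p = 0.0118), and -0.81 ± 0.14 in atRA, 1.75-fold lower (limma adjusted p = 0.00761). The EtOH call was lost without RARaKO EtOH set 3 (adjusted p = 0.0556), and the atRA call held without each of the 12 arrays. Both calls were lost without the whole of set 3 or of set 4, with adjusted p up to 0.182 in EtOH and 0.106 in atRA. With the set as a block the adjusted p in EtOH was 2.11e-04.

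The other 2 probe sets of Meis1 gave smaller differences. Meis1 1443260_at read -0.20, -0.21 and -0.64 in RARaKO EtOH arrays, against 0.09, 0.14 and 0.13 in WT EtOH arrays, so that set 4 of RARaKO stood lowest and the genotypes did not overlap. The difference was -0.48 ± 0.11 (limma adjusted p = 0.0384), and the call was lost when any of 8 arrays was left out: RARaKO EtOH set 3 or 4, or any of the 6 WT arrays (adjusted p from 0.0513 to 0.121). In atRA the genotypes overlapped, at -0.18 ± 0.11 (limma adjusted p = 0.450). Meis1 1459423_at differed by 0.02 in EtOH and 0.05 in atRA, with 95% intervals from -0.13 to 0.17 and from -0.10 to 0.20.

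Meis2 1417129_a_at, in the highest level class, read -0.30, -0.65 and -0.84 in RARaKO EtOH arrays, against 0.31, 0.08 and -0.0062 in WT EtOH arrays. In atRA it read 0.0062, -0.36 and -0.64 in RARaKO arrays, against 0.52, 0.26 and 0.31 in WT arrays. The genotypes did not overlap in either treatment. The difference was -0.73 ± 0.16 in EtOH (limma adjusted p = 0.0305) and -0.69 ± 0.16 in atRA (limma adjusted p = 0.0381). The EtOH call was lost without RARaKO EtOH set 3 or 4 or any of the 3 WT EtOH arrays (adjusted p from 0.0591 to 0.115). The atRA call was lost without RARaKO atRA set 3 or 4, RARaKO EtOH set 3, any of the 3 WT atRA arrays or WT EtOH set 3 (adjusted p from 0.0525 to 0.120). With the set as a block the adjusted p in EtOH was 4.86e-04.

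Meis2 1457632_s_at, also in the highest class, read -0.16, -0.61 and -0.78 in RARaKO EtOH arrays, against 0.34, 0.13 and 0.04 in WT EtOH arrays. In atRA it read -0.04, -0.18 and -0.49 in RARaKO arrays, against 0.72, 0.41 and 0.52 in WT arrays. Again no RARaKO array reached a WT array of its treatment. The difference was -0.69 ± 0.16 in EtOH (limma adjusted p = 0.0322) and -0.79 ± 0.16 in atRA (limma adjusted p = 0.0154). The EtOH call was lost without RARaKO EtOH set 3 or 4 or any of the 3 WT EtOH arrays (adjusted p from 0.0639 to 0.128), and the atRA call without RARaKO atRA set 4, WT atRA set 2 or WT atRA set 4 (0.0517 to 0.0647).

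Meis2 1447861_x_at and 1440091_at also had RARaKO below WT arrays in both treatments, with no overlap. For 1447861_x_at the difference was -0.47 ± 0.14 in EtOH (limma adjusted p = 0.113; 0.0295 with the set as a block) and -0.58 ± 0.14 in atRA (0.0499). That atRA call was lost without RARaKO atRA set 2 or 4, RARaKO EtOH set 3 or any of the 6 WT arrays (adjusted p from 0.0518 to 0.146). For 1440091_at the difference was -0.62 ± 0.19 in EtOH (limma adjusted p = 0.103; 0.00354 with the set as a block) and -0.47 ± 0.19 in atRA (limma adjusted p = 0.204).

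An order of the sets recurred across groups in Meis probe sets. Meis1 1450992_a_at, Meis2 1417129_a_at and Meis2 1457632_s_at were each highest in set 2 in all 4 groups and lowest in set 4 in 3 of 4 groups. Meis2 1447861_x_at was highest in set 2 in 3 groups and lowest in set 4 in 3. Set 4 was also lowest in all 4 groups for Meis2 1440091_at and in 3 for Meis1 1443260_at, but in only 1 for Meis1 1459423_at. In the blocked fit in EtOH the calls of Meis1 1450992_a_at and Meis2 1417129_a_at, 1457632_s_at and 1440091_at held without each of the 12 arrays. The number of members called ran from 5 to 7, and was 7 with all arrays, when 5.24% of all probe sets were called. Without the block, 1 member was called when RARaKO EtOH set 3, WT EtOH set 2 or WT EtOH set 3 was left out, and 2 when RARaKO EtOH set 4 or WT EtOH set 4 was. In atRA 2 were called without RARaKO atRA set 4, WT atRA set 2 or WT atRA set 4, and 3 without RARaKO EtOH set 3, WT atRA set 3 or WT EtOH set 3. Over all probe sets, the calls with 1 array left out ran from 545 to 1426 in EtOH, against 1131 with all arrays. They ran from 532 to 1124 in atRA, against 1173. The calls of Meis2 1417129_a_at and 1457632_s_at in both treatments were lost without the whole of set 3 or of set 4 (adjusted p up to 0.306). Those of Meis1 1443260_at in EtOH and Meis2 1447861_x_at in atRA were lost without any whole set (adjusted p up to 0.200 and 0.227). With only the arrays of the groups compared, Meis1 1443260_at and Meis2 1457632_s_at were no longer called in EtOH, nor Meis2 1417129_a_at and 1447861_x_at in atRA.

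No Meis probe set passed the test for a response to atRA. In RARaKO cells the 7 probe sets had responses from 0.13 to 0.28, the smallest limma adjusted p being 0.631. In WT cells they ran from -0.07 to 0.38, the smallest limma adjusted p being 0.544. For Meis2 1457632_s_at and 1447861_x_at the WT atRA arrays lay above the WT EtOH arrays, and the RARaKO arrays overlapped. The difference between responses was -0.10 for Meis2 1457632_s_at, with an interval from -0.58 to 0.37.

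Meis1 1450992_a_at and Meis2 1417129_a_at had a Pearson r of 0.99 over the 12 arrays and 0.97 within groups. The suffix of a probe set says how specific its probes are: those ending in _a_at read several transcripts of a gene, those in _s_at can read more than 1 gene and those in _x_at may bind unrelated transcripts. Whether probes of one Meis gene also bind the transcript of the other was not tested. The mean log2 difference between the 5′ and 3′ probe sets of the array's control genes was taken as a measure of RNA quality. These probe sets too have their median over the 12 arrays set to 0. The mean therefore compares arrays and gives no absolute quality. It was 0.07, -0.02 and 0.13 in RARaKO EtOH arrays (sets 2, 3 and 4), against -0.09, -0.12 and -0.08 in WT EtOH arrays. The genotypes did not overlap in EtOH. In atRA it was 0.06, 0.0012 and 0.09 in RARaKO arrays, against 0.02, -0.02 and -0.01 in WT arrays, which overlapped. In WT cells it was also higher in all 3 atRA arrays than in all 3 EtOH arrays. Of the control genes, Tfrc alone separated the genotypes in EtOH. Its differences were 0.01, -0.07 and 0.39 in RARaKO arrays, against -0.17, -0.48 and -0.11 in WT arrays. Those of Actb, Gapdh and Pcx overlapped. The part of this measure in the results was not tested.

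**Figure D2:**
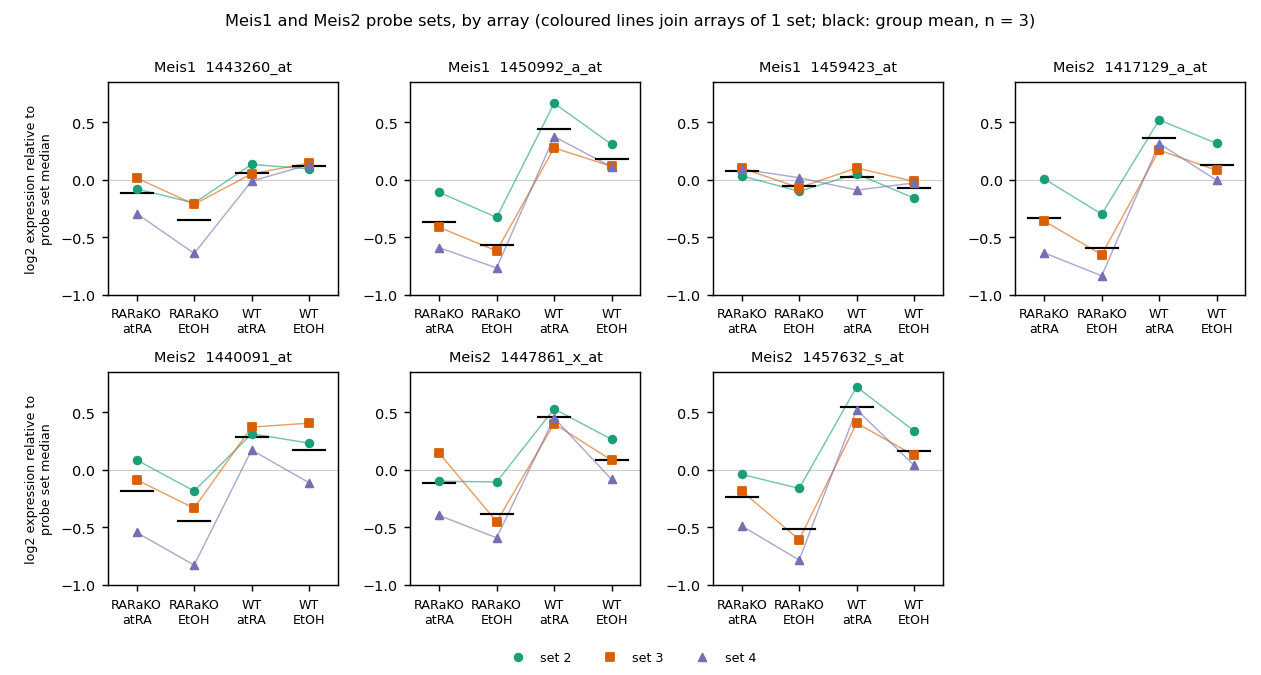
Log2 expression relative to the probe set median (vertical axis) for the 7 Meis1 and Meis2 probe sets in the 4 groups, with coloured lines joining arrays of 1 set and black bars for the group mean (n = 3). RARaKO arrays lie below WT arrays of the same treatment for 5 of the 7 in both treatments, while Meis1 1459423_at stays near 0.

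Promoters are shown for Meis1 and Meis2, which had probe sets called lower in RARaKO than in WT cells, and for Cdx2. That of Cdx2 was the single member promoter found to hold a hexamer of the kind that retinoic acid receptors bind. RefSeq sequences of GRCm38.p6, from 250 bases before the gene's start to 50 after it, were given for 4 of the 7 genes, these 3 and Gbx2. All lie on the minus strand and are written 5′ to 3′ along the gene. Capitals mark such a hexamer. The Meis1 promoter is chr11:19018920-19019219, that of Meis2 is chr2:116064570-116064869 and that of Cdx2 is chr5:147307200-147307499.
Meis1: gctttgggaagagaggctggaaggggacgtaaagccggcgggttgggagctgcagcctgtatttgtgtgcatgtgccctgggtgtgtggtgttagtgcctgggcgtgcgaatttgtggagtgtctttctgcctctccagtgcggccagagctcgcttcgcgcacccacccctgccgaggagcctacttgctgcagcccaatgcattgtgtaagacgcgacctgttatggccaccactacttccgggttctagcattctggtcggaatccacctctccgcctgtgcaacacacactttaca
Meis2: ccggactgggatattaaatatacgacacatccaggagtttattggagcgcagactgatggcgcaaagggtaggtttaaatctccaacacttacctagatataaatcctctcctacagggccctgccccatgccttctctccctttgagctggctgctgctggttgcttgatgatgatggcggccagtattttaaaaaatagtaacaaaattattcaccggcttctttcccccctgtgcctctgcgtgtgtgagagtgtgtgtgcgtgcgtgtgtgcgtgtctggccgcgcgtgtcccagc
Cdx2: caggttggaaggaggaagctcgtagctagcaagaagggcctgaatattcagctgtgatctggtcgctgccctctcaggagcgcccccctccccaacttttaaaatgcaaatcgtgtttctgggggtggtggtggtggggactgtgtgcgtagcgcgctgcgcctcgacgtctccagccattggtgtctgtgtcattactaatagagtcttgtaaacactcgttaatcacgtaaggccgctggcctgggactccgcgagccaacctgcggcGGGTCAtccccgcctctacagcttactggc
The hexamer AGGTCA was searched on both strands, and so were its variants: first AGTTCA, then GGGTCA, and last GGTTCA. The Cdx2 promoter held a GGGTCA whose first base is base 21, with the start counted as base 1. Those of Meis1, Meis2 and Gbx2 held none. Of 32817 promoters of the same length 43.7% held at least 1. Pairs of hexamers in direct repeat with 1, 2 or 5 bases between them, the arrangement that retinoic acid receptors bind, were found in none of the 4, and in 0.222%, 0.268% and 0.0975% of all promoters. A match here is a description of letters, and these windows say nothing of sites farther away.

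Cdx2, which marks trophoblast and acts with Cdx1 in posterior patterning, was not called in any comparison. Cdx2 1422074_at read -0.34, 0.05 and -0.22 in RARaKO cells with atRA (sets 2, 3 and 4), against 0.12, 0.10 and 0.06 in WT cells with atRA. All 3 RARaKO arrays lay below the WT arrays, at a difference of -0.26 ± 0.09 (limma adjusted p = 0.129). Its responses were -0.16 in RARaKO and 0.13 in WT cells. The difference between its responses was -0.28, with an interval from -0.55 to -0.02 and a limma adjusted p of 1.00, and among the 16 it alone had an unadjusted p under 0.05. Over all probe sets 1168 had such an unadjusted p and 0 were called, which is 0% of them, so no member differed in its response between the genotypes at the adjusted threshold. Cdx2 1422075_at had differences of 0.14 in EtOH and 0.06 in atRA, and responses of 0.09 in RARaKO and 0.16 in WT cells.

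Gbx2 1420337_at read -0.02, -0.41 and 0.25 in RARaKO cells with atRA (sets 2, 3 and 4) and -0.36, -0.22 and -0.08 with EtOH. In WT cells it read 0.02, 0.16 and 0.10 with atRA and 0.13, 0.04 and -0.17 with EtOH. All groups compared overlapped, and RARaKO in atRA had the widest spread. The response was 0.16 in RARaKO and 0.09 in WT cells, with 95% intervals from -0.15 to 0.46 and from -0.21 to 0.40. The genotype difference was -0.22 in EtOH and -0.15 in atRA, and no limma adjusted p was under 0.515.

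**Figure D3:**
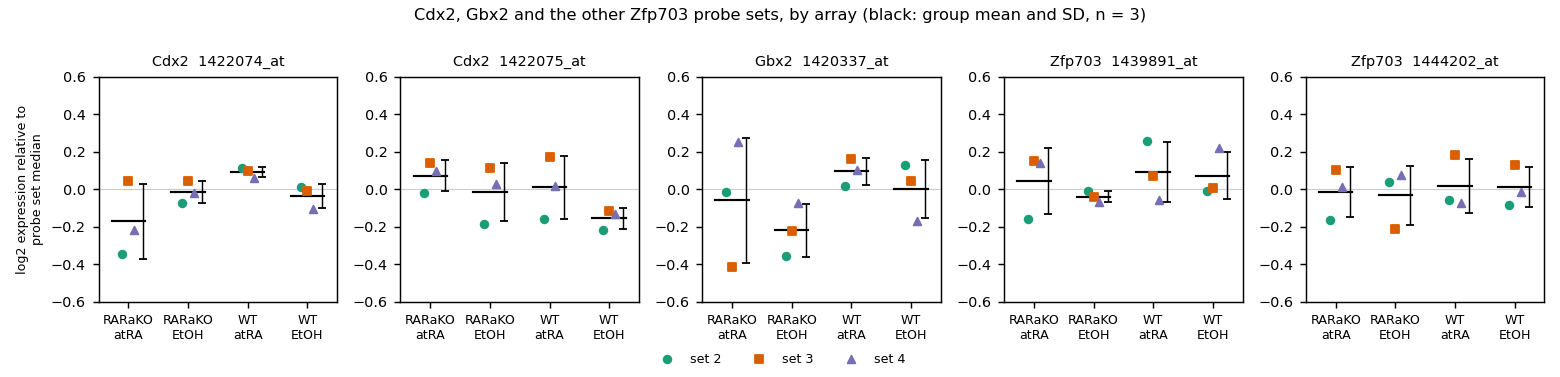
Log2 expression relative to the probe set median (vertical axis) for both Cdx2 probe sets, Gbx2 and the other 2 Zfp703 probe sets in the 4 groups, with 1 point per array coloured by set and the group mean and SD in black (n = 3). Apart from Cdx2 1422074_at, where RARaKO atRA arrays lie below WT atRA arrays and WT atRA arrays above WT EtOH arrays, and Zfp703 1439891_at, where RARaKO EtOH arrays lie below WT EtOH arrays, the groups compared overlap, and none of these differences was called.

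**Figure D4:**
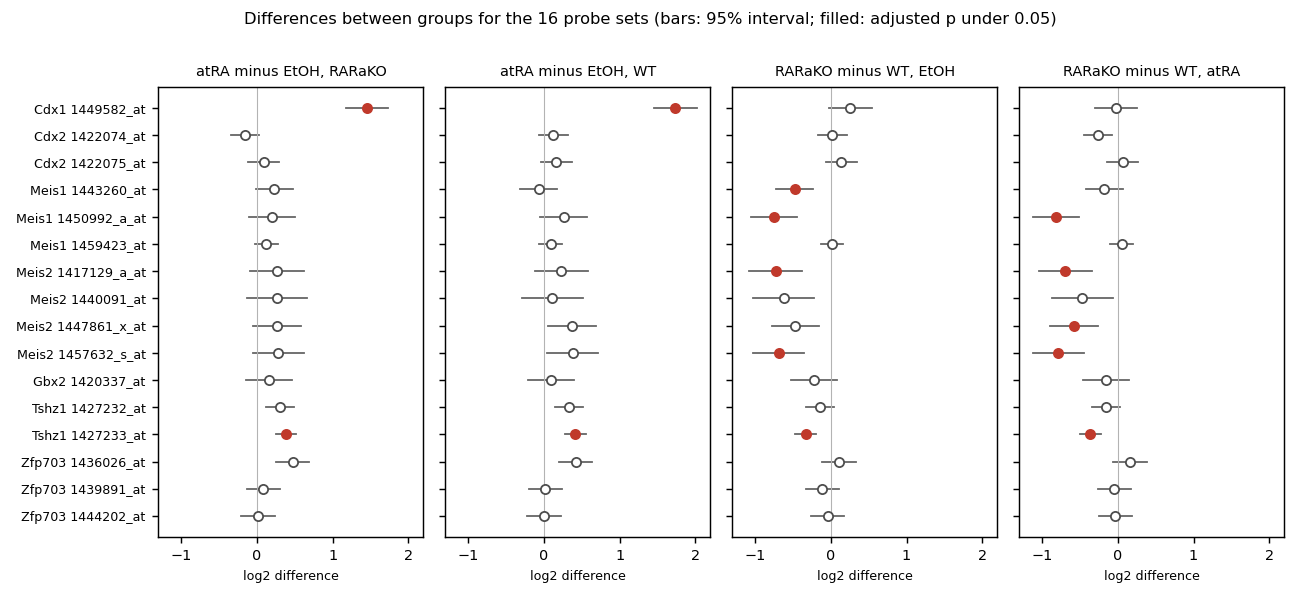
Log2 differences (horizontal axes) for the 16 probe sets with 95% intervals, in panels for atRA minus EtOH in RARaKO, atRA minus EtOH in WT, RARaKO minus WT in EtOH and RARaKO minus WT in atRA; filled points have an adjusted p under 0.05. Cdx1 stands alone at the right in both response panels, and the Meis probe sets lie to the left of 0 in both genotype panels except Meis1 1459423_at.

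Lists of related genes were counted beside the members, each gene by 1 probe set. None of the 6 family relatives (Cdx4, Meis3, Gbx1, Tshz2, Tshz3, Zfp503) was called in any comparison. Of 7 measured TALE partners only Pbx2, which binds DNA with Hox and Meis proteins, was called: it rose by 0.38 ± 0.06 in RARaKO cells (limma adjusted p = 0.0175) and by 0.56 ± 0.06 in WT cells (limma adjusted p = 6.08e-04). Of 30 measured Hox genes 4 rose with atRA in RARaKO cells, where 0.215% of all probe sets were called higher, and 6 rose in WT cells, against 0.484%. None fell. Hoxb5, Hoxb2, Hoxb1 and Hoxa4 rose in both genotypes, by 1.25, 0.68, 0.74 and 0.91 in RARaKO cells and by 1.63, 0.99, 1.11 and 1.25 in WT cells, and Hoxa2 and Hoxa5 were the other two in WT cells. In RARaKO against WT cells 2 Hox genes were lower in EtOH, where 1.16% of all probe sets were called lower, and 5 were lower in atRA, against 1.51%. Hoxb5 was lower by 0.78 ± 0.13 in EtOH (limma adjusted p = 0.00475) and by 1.17 ± 0.13 in atRA (limma adjusted p = 2.75e-04). Hoxb1, an early hindbrain gene, was lower by 0.65 ± 0.11 in EtOH (limma adjusted p = 0.00765) and by 1.02 ± 0.11 in atRA (limma adjusted p = 3.58e-04). Hoxb13 and Hoxb2 were lower in atRA, by 0.84 and 0.63, and so was Hoxc10. None of 15 measured signals and mesoderm factors that act above Cdx genes was called. Of 11 measured midbrain, hindbrain and anterior factors around Gbx2 only En2 was called, lower in RARaKO cells in atRA by 0.65 ± 0.12 (limma adjusted p = 0.00988).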

How the data were processed

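Per the submitters' processing notes the authors processed the 12 arrays with GCRMA, whose version is not given in the sources used here. The deposited values are taken as log2 expression per probe set. No label states the log base. The deposited values were found to have a median of 0 in every probe set (largest size 7.02e-07), a step that no label records, so levels are lost. Of 37661 probe sets 61 controls were left out. A single symbol was given for 30488, several for 784 and none for 6328.

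All 12 arrays entered 1 limma 3.58.1 fit in R 4.3.3 (lmFit and eBayes, a mean per group, 8 residual and 4.60 prior degrees of freedom, two-sided). The script was tested on simulated data. The members and lists were chosen with earlier results of these data known. Every member probe set is named, list genes where called (at most 4 with values per list and comparison, by smallest p; Hoxa2, Hoxa5 and Hoxc10 fall outside this and are named to complete their counts), and the 3 genes most like each called member's standing probe set, which has the highest class, then the least ambiguous suffix, then the lowest number. Trying other probe sets, weights, normalizations, a block and arrays left out gave the alternatives.

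Same-numbered arrays deviated together (every pair's correlation over 0.1) in the WT response (0.101 to 0.392), the RARaKO response (0.117 to 0.497) and the genotype comparison in EtOH (0.116 to 0.238), but not in atRA (0.0375 to 0.287). The set is no term of the fit behind the results. Values with the set as a block are given beside some results of the first 3 comparisons. For the atRA comparison they are given only among the alternatives. Figures were drawn with matplotlib 3.10.9.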

Additional observations from a re-analysis of the deposited data

How the results depend on the processing

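The 12 arrays, median-centred values and an unstated log base limit the results. Of 435 values of called members under the alternatives 0 changed direction and 111 were no longer called. Both counts pool calls of the fit behind the results with calls of the blocked fit, where each array was left out in turn. They therefore include Meis2 1440091_at and 1447861_x_at in EtOH, which the fit behind the results did not call. The 111 are not the losses of the reported calls alone. With the replicate block the calls over all probe sets were 167 for the RARaKO response, 339 for the WT response, 1972 for RARaKO against WT in EtOH and 2344 in atRA. The block changed no other call of a member than those given above, except that Meis2 1440091_at was also called in atRA (limma adjusted p = 0.0168). In that comparison the pair of set 4 missed the cut of 0.1 (correlation 0.0375). The pairs of sets 2 and 3 passed it (0.287 and 0.144). With only the arrays of the groups compared, member calls were 1 in the RARaKO response, 1 in the WT response, 3 in the EtOH comparison and 2 in the atRA comparison, and calls over all probe sets were 14 in the RARaKO response and 592 in the atRA comparison. Using only the highest level class left 0, 0, 2 and 2 member calls in that order, since 14 members were then not tested. Array weights gave 382 calls in the WT response and 2071 in the EtOH comparison.

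These values, none of them called, changed sign. With array weights Zfp703 1439891_at was at -0.033 and 1444202_at at -0.055 in the WT response, Meis1 1459423_at at -0.0010 in the EtOH comparison, and Cdx1 at 0.048 and Zfp703 1439891_at and 1444202_at at 0.033 and 0.038 in the atRA comparison. With quantile normalization Zfp703 1444202_at was at -0.0013 in the WT response and Cdx1, at 0.26 as reported, was at -0.026 in the EtOH comparison. With the mean of a gene's probe sets Meis1 was at 0.094 in the WT response and Zfp703 at -0.016 in the EtOH comparison. The cause was not tested.

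Leaving out each array, or each set, gave these ranges. Members called ran from 0 to 2 in the RARaKO response, 1 to 2 in the WT response, 0 to 5 in the EtOH comparison and 0 to 5 in the atRA comparison. All probe sets called ran from 2 to 88, 40 to 226, 217 to 1426 and 320 to 1124 in that order, lowest without the whole of set 3, or of set 4 in the atRA comparison. In the RARaKO response Zfp703 1444202_at ran from -0.13 to 0.13. In the WT response Meis2 1440091_at ran from -0.033 to 0.23, Zfp703 1439891_at from -0.11 to 0.17 and 1444202_at from -0.077 to 0.064. The difference between responses ran from -0.19 to 0.061 for Meis1 1450992_a_at and from -0.24 to 0.075 for Meis2 1457632_s_at. In the EtOH comparison Cdx2 1422074_at ran from -0.016 to 0.071, Meis1 1459423_at from -0.029 to 0.052, Zfp703 1436026_at from -0.0090 to 0.18 and 1444202_at from -0.13 to 0.11. In the atRA comparison Cdx1 ran from -0.17 to 0.081, Cdx2 1422075_at from -0.022 to 0.14, Meis1 1459423_at from -0.0099 to 0.095, Gbx2 from -0.31 to 0.057, Zfp703 1439891_at from -0.17 to 0.14 and 1444202_at from -0.092 to 0.050.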

Other observations

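The genes whose values over the 12 arrays were most like those of the members called were named by the Pearson r with the probe set that stands for the member. The arrays share the 4 group means, and r is given as a description. Like Cdx1 were Ltbp3 (0.981), which encodes a binding protein of latent TGF-beta, Rhobtb1 (0.977) and Smpd4 (0.976). Their responses to atRA were 0.78, 0.74 and 0.29 in RARaKO cells and 0.87, 0.90 and 0.33 in WT cells. Like Meis2 were Meis1 (0.988), Ppp3cc (0.968), a catalytic subunit of calcineurin, and Furin (0.968), a proprotein convertase. Ppp3cc and Furin differed between RARaKO and WT cells by -0.51 and -0.21 in EtOH. Like Meis1 1443260_at were Tmem267 (0.900), Prr11 (0.898) and Meis2 1440091_at (0.896). Like Tshz1 1427232_at were Fbxo44 (0.929), Myrf (0.917) and Pim1 (0.914), a serine/threonine kinase, and Pim1 had responses of 0.43 in RARaKO and 0.62 in WT cells.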
